A study of Mus musculus with 5 samples.

Results

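Eomes (also called Tbr2) and the genes Insm1, Gadd45g, Mfap4, Rgs16, Igsf8 and Cbfa2t2 mark the intermediate, or basal, progenitors of the embryonic cerebral cortex. These 7 genes were taken by name from a table of 23234 gene rows, and all 7 were found and tested by the authors. The table compares mouse (CD1) cortical cells that carried a construct for Ptf1a and GFP with cells that carried a GFP-only construct. Constructs were electroporated into the cortex at E12.5, and GFP-positive cells were purified by sorting at E15.5. There were 3 Ptf1a samples and 2 GFP-only samples, each pooled from 3 to 6 brains, and the promoter of the constructs is not given in the sources used here. Levels are FPKM, a count of fragments divided by transcript length and library size, which the authors merged into a single value per group, so no spread between samples and no depth per sample can be given. Rose and fell are used of genes whose q-value in the authors' deposited table was under 0.05.

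Radial glia, the stem cells lining the ventricle, divide to give intermediate progenitors, which leave the ventricle, divide again and yield pyramidal neurons. Eomes is a T-box transcription factor that defines this intermediate stage, and it is switched on after Pax6 and Neurog2 and before the neuronal factors Neurod1 and Tbr1. Insm1 is a zinc finger repressor that promotes the formation of basal progenitors. Ptf1a, a bHLH factor required for inhibitory neurons of the cerebellum, retina and spinal cord, binds DNA at E-boxes together with an E protein and an Rbpj protein. Ptf1a itself stood at 38.9 FPKM in the Ptf1a group and 0.210 FPKM in the GFP-only group (log2 difference 6.98), and reads of the construct and of the native gene are not separated.

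All 7 members were higher with Ptf1a, and 5 of them rose: Mfap4, Eomes, Insm1, Rgs16 and Cbfa2t2. Gadd45g and Igsf8 were not called. Over all 11876 tested genes 18.7% rose and 19.1% fell. Counts of the families, partners and lists below are to be read beside these shares. The members' median log2 difference, Ptf1a minus GFP-only and computed as log2(FPKM + 0.1), was 0.78, beside -0.01 for all tested genes. The members were picked with earlier results of these data known, so the count describes them and is not a test of the group. In RNA from a purified population, more cells of a type and more RNA per cell cannot be told apart.

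Most of the members' calls were not made when a normal p was taken from the authors' test statistic. For every member except Mfap4, the p-value in the authors' deposited table is smaller than a two-sided normal p of the test statistic in the same row. The smallest p in the authors' deposited table was 5.00e-05, shared by 1803 genes. How that p was derived from the statistic is not given in the sources used here. The normal p assumes a normally distributed statistic, which was not tested, so it is a second yardstick and not a correction of the authors' calls. With that normal p of the authors' statistic in the deposited table, adjusted over the 11831 tested genes that carry a statistic by the Benjamini-Hochberg method, 1 member rose, Mfap4 (adjusted p = 4.30e-07), where 3.31% of genes rose and 2.81% fell. Eomes then had an adjusted p of 0.0559, Insm1 0.0807, Cbfa2t2 0.392 and Rgs16 0.549.

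**Figure D1:**
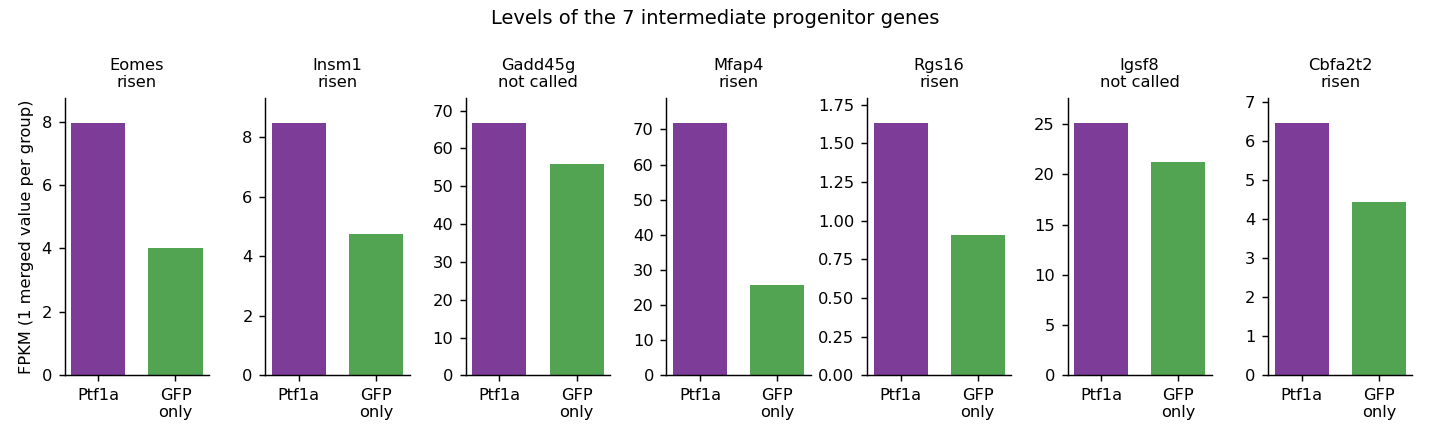
FPKM of each member (vertical axis, a separate scale for each gene, from 0) in the Ptf1a group (left bar) and the GFP-only group (right bar), each bar being the authors' single merged value with no error available. All 7 bars are higher with Ptf1a, and the gap is widest for Mfap4 (71.8 against 25.6 FPKM).

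Promoters are shown because 3 of the 5 members with a RefSeq promoter window rose and the other two were not called. The windows run from 250 bases before to 50 bases after the annotated start (RefSeq, GRCm38.p6), and 5 of the 7 members were matched by symbol. They were searched for the E-box CANNTG, which reads the same on both strands as a pattern, and for TGGGAA on either strand, the core bound by Rbpj proteins. Capitals mark E-boxes, and the E-box and TGGGAA matches did not overlap. The windows printed are those of Eomes (chr9:118477939-118478238, plus strand), Gadd45g (chr13:51846425-51846724, plus strand) and Igsf8 (chr1:172312117-172312416, plus strand), chosen as the gene that names the group and the members with an E-box.
Eomes: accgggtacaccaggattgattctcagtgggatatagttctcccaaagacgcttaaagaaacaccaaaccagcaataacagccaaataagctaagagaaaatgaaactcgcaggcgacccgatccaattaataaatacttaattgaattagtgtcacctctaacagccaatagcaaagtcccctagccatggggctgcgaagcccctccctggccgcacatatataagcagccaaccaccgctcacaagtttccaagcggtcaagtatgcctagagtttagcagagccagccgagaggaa
Gadd45g: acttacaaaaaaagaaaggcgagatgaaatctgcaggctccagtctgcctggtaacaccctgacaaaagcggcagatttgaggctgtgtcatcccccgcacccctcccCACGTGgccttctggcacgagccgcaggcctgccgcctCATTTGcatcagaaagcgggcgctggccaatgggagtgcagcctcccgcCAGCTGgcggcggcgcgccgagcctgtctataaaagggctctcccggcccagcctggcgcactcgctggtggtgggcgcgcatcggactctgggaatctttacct
Igsf8: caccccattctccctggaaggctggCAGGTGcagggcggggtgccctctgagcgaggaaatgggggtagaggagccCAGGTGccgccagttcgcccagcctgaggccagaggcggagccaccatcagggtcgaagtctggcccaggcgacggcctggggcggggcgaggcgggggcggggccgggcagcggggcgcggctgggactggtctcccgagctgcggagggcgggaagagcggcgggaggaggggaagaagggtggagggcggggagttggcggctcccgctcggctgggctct

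The Gadd45g window held 3 E-boxes. Counted from the start site, CACGTG began at -142, CATTTG at -104 and CAGCTG at -55, and a single TGGGAA began at 36. The Igsf8 window held 2 copies of CAGGTG at -225 and -174 and no TGGGAA. The Eomes, Rgs16 and Cbfa2t2 windows held neither motif. Insm1 and Mfap4, which rose, had no window, so motif and call cannot be compared over all 7 members. Within the matched windows, those of Gadd45g and Igsf8, which were not called, held E-boxes. Those of Eomes, Rgs16 and Cbfa2t2, which rose, held none, and a link between motif and call was not tested. Among all 32851 RefSeq windows of this length, 72.3% held CANNTG and 25.6% held TGGGAA. The Eomes window was 47.3% G or C, and the other matched members ranged from 62.3% to 79.0%, beside a median of 52.7% over all windows. These matches describe letters in a short stretch and no binding was measured.

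Eomes (chromosome 9, 118387307 to 118395250, mm9) stood at 7.95 FPKM in the Ptf1a group and 4.02 FPKM in the GFP-only group. That is 1.98-fold, or 0.98 as a log2 fold. Its q in the authors' deposited table was 3.29e-04, the smallest given there and shared by 1803 genes. Of all tested genes, 8.16% had a larger log2 difference. Insm1 (chromosome 2, 146047733 to 146050754, mm9) followed closely, at 8.46 FPKM with Ptf1a and 4.74 FPKM in controls (log2 fold 0.84, q = 3.29e-04 in the authors' deposited table). The levels of the 2 factors were thus close in each group, and no test of their difference is possible from single values. Insm2, the only INSM paralog, was at 0.115 FPKM with Ptf1a and 0.0358 FPKM in controls, in a row without a test.

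The order of levels among the members changed little. With Ptf1a it ran Mfap4, Gadd45g, Igsf8, Insm1, Eomes, Cbfa2t2 and Rgs16, and in the GFP-only group Gadd45g, Mfap4, Igsf8, Insm1, Cbfa2t2, Eomes and Rgs16. Mfap4 and Gadd45g exchanged places, as did Eomes and Cbfa2t2. Which neighbours differ beyond their spread cannot be said without values per sample.

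Mfap4 (chromosome 11, 61298946 to 61302206, mm9), which encodes a secreted matrix glycoprotein that binds elastic fibres, moved most. It stood at 71.8 FPKM with Ptf1a and 25.6 FPKM in controls, 2.80-fold, with a test statistic of 6.02 and q = 3.29e-04 in the authors' deposited table. Only 3.84% of tested genes had a larger log2 difference. Mfap4 is also made by fibroblasts and by the mural cells of vessels, so their markers are given here. The 5 meningeal fibroblast genes summed to 2.53 FPKM with Ptf1a and 4.07 FPKM in controls. Within them Col1a1, Col1a2 and Col3a1 were at or below 0.152 FPKM in both groups, and the proteoglycan gene Dcn fell (1.79 FPKM with Ptf1a, 3.11 FPKM in controls, q = 0.00785 in the authors' deposited table). The 5 mural cell genes summed to 3.87 FPKM with Ptf1a and 2.00 FPKM in controls. Of these, Pdgfrb (1.20 FPKM with Ptf1a, 0.0286 FPKM in controls) and Rgs5 rose and Kcnj8 fell (0.639 FPKM with Ptf1a, 1.17 FPKM in controls), while Acta2 and Cspg4 had no test. Of these calls and that of Dcn, the adjusted normal p kept that of Pdgfrb. The part of such cells in the Mfap4 value was not tested.

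The known ligands and receptors of the Mfap4 protein were scarce. The matrix genes Eln, Fbn1 and Fbn2 and the integrin genes Itgav and Itgb3 had no test and stood at no more than 0.340 FPKM in either group. Itgb5, another integrin subunit, rose to 2.90 FPKM with Ptf1a, against 0.567 FPKM in controls (q = 3.29e-04 in the authors' deposited table). Other genes share the name microfibril-associated protein without forming a single protein family. Among them Mfap2, a fibrillin-binding protein, stood at 283 FPKM with Ptf1a and 219 FPKM in controls, and Mfap3 at 30.8 FPKM with Ptf1a and 18.0 FPKM in controls. Both rose (q = 0.00183 and 3.29e-04 in the authors' deposited table), while Mfap1a, Mfap1b and Mfap5 were not called. By the adjusted normal p Mfap3 and Itgb5 kept their calls and Mfap2 did not.

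Cbfa2t2 (chromosome 2, 154262220 to 154365092, mm9), a co-repressor of the MTG (ETO) family, stood at 6.45 FPKM with Ptf1a and 4.43 FPKM in controls (log2 fold 0.54, q = 6.12e-04 in the authors' deposited table). All 3 MTG genes rose by the authors' q, and 0 of them by the adjusted normal p. Cbfa2t3 stood at 2.04 FPKM with Ptf1a and 0.965 FPKM in controls, and Runx1t1, the most abundant, at 15.2 FPKM with Ptf1a and 11.7 FPKM in controls. Of 8 genes for proteins that MTG factors bind, 5 rose and 1 fell by the authors' q, and 0 did either by the adjusted normal p. The E protein genes Tcf4 (90.8 FPKM with Ptf1a, 59.2 FPKM in controls) and Tcf12 (7.54 FPKM with Ptf1a, 4.51 FPKM in controls) were among those that rose, as were the co-repressor genes Ncor1 and Sin3a. Sin3b, another co-repressor gene, fell to 141 FPKM with Ptf1a, against 202 FPKM in controls. Tcf3 and Hdac3 were not called.

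The Insm1 protein acts through a complex of the demethylase Kdm1a with CoREST proteins and histone deacetylases. Of 9 genes of this complex 2 rose and 1 fell by the authors' q, and 0 did either by the adjusted normal p. By the authors' q 18.7% of all tested genes rose and 19.1% fell, so these counts do not set the complex apart. The CoREST genes Rcor1 (3.52 FPKM with Ptf1a, 1.90 FPKM in controls) and Rcor2 (10.8 FPKM with Ptf1a, 7.26 FPKM in controls) rose, and the deacetylase gene Hdac2 fell (62.9 FPKM with Ptf1a, 82.9 FPKM in controls). Kdm1a itself stood at 12.7 FPKM with Ptf1a and 13.5 FPKM in controls and was not called, nor were Rcor3, Hdac1, Gse1 and Hmg20b.

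Rgs16 (chromosome 1, 155587483 to 155592598, mm9) encodes a GTPase-activating protein that shortens signalling by Gi and Gq proteins. It was the weakest member, at 1.63 FPKM with Ptf1a and 0.910 FPKM in controls (log2 fold 0.84, q = 0.0174 in the authors' deposited table). On the log2(FPKM + 0.1) scale its difference was 0.78, and 0.46 with a pseudocount of 1, since a pseudocount weighs more at low levels. The authors' calls in the RGS family ran in both directions. Of 15 tested genes 5 rose (Rgs9, Rgs5, Rgs20, Rgs16 and Rgs4) and 4 fell (Rgs7, Rgs2, Rgs10 and Rgs3), with a median log2 difference of -0.21. By the adjusted normal p 0 rose and 1 fell, Rgs2. Rgs9 stood at 0.925 FPKM with Ptf1a and 0.176 FPKM in controls, and Rgs5 at 1.55 FPKM with Ptf1a and 0.623 FPKM in controls. Rgs20 stood at 5.20 FPKM with Ptf1a and 2.42 FPKM in controls, and Rgs4 at 5.55 FPKM with Ptf1a and 4.06 FPKM in controls. Rgs2 fell to 6.67 FPKM with Ptf1a, against 12.8 FPKM in controls, and Rgs10 to 11.2 FPKM with Ptf1a, against 19.1 FPKM in controls. Rgs3 stood at 2.72 FPKM with Ptf1a and 4.40 FPKM in controls, and Rgs7 at 0.915 FPKM with Ptf1a and 2.24 FPKM in controls. Rgs6, Rgs8, Rgs12, Rgs13, Rgs17 and Rgs19 were not called. Of the 7 G protein alpha subunit genes that such proteins act on, Gnai2 rose (35.2 FPKM with Ptf1a, 26.1 FPKM in controls), Gnaz fell (1.53 FPKM with Ptf1a, 2.34 FPKM in controls) and 5 were not called (Gnai1, Gnai3, Gnao1, Gnaq and Gna11). Neither Gnai2 nor Gnaz was called by the adjusted normal p. Among all tested genes 18.7% rose and 19.1% fell by the authors' q.

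Gadd45g (chromosome 13, 51942044 to 51943843, mm9), a small growth arrest protein found in neurogenic progenitors, was the most abundant member of the control group. It stood at 66.7 FPKM with Ptf1a and 55.9 FPKM in controls, 1.19-fold, and did not pass (p = 0.0399, q = 0.0910 in the authors' deposited table). Its paralog Gadd45b fell to 1.45 FPKM with Ptf1a, against 2.77 FPKM in controls (q = 0.0137 in the authors' deposited table), a call not made by the adjusted normal p. Gadd45a, at 1.16 FPKM with Ptf1a and 1.67 FPKM in controls, was not called. Gadd45 proteins bind cell cycle regulators. Of 5 genes for such partners, 3 rose: Ccnb1 (56.3 FPKM with Ptf1a, 23.4 FPKM in controls), Cdk1 (38.3 FPKM with Ptf1a, 18.6 FPKM in controls) and the inhibitor gene Cdkn1a (14.2 FPKM with Ptf1a, 5.79 FPKM in controls). The replication clamp gene Pcna, at 223 FPKM with Ptf1a and 230 FPKM in controls, and the kinase gene Map3k4 were not called. The 3 calls were also made by the adjusted normal p.

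Igsf8 (chromosome 1, 174242538 to 174249966, mm9), a membrane protein of the EWI immunoglobulin family that binds tetraspanins, had the smallest difference of the members. It stood at 25.1 FPKM with Ptf1a and 21.2 FPKM in controls, 1.18-fold (q = 0.128 in the authors' deposited table). Its paralog Igsf3 (41.1 FPKM with Ptf1a, 35.3 FPKM in controls) and Ptgfrn (0.809 FPKM with Ptf1a, 0.828 FPKM in controls) were not called either. Of its tetraspanin partners, Cd9 rose (78.8 FPKM with Ptf1a, 59.2 FPKM in controls, q = 0.00228 in the authors' deposited table, not called by the adjusted normal p), while Cd81 stood at 285 FPKM in both groups.

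**Figure D2:**
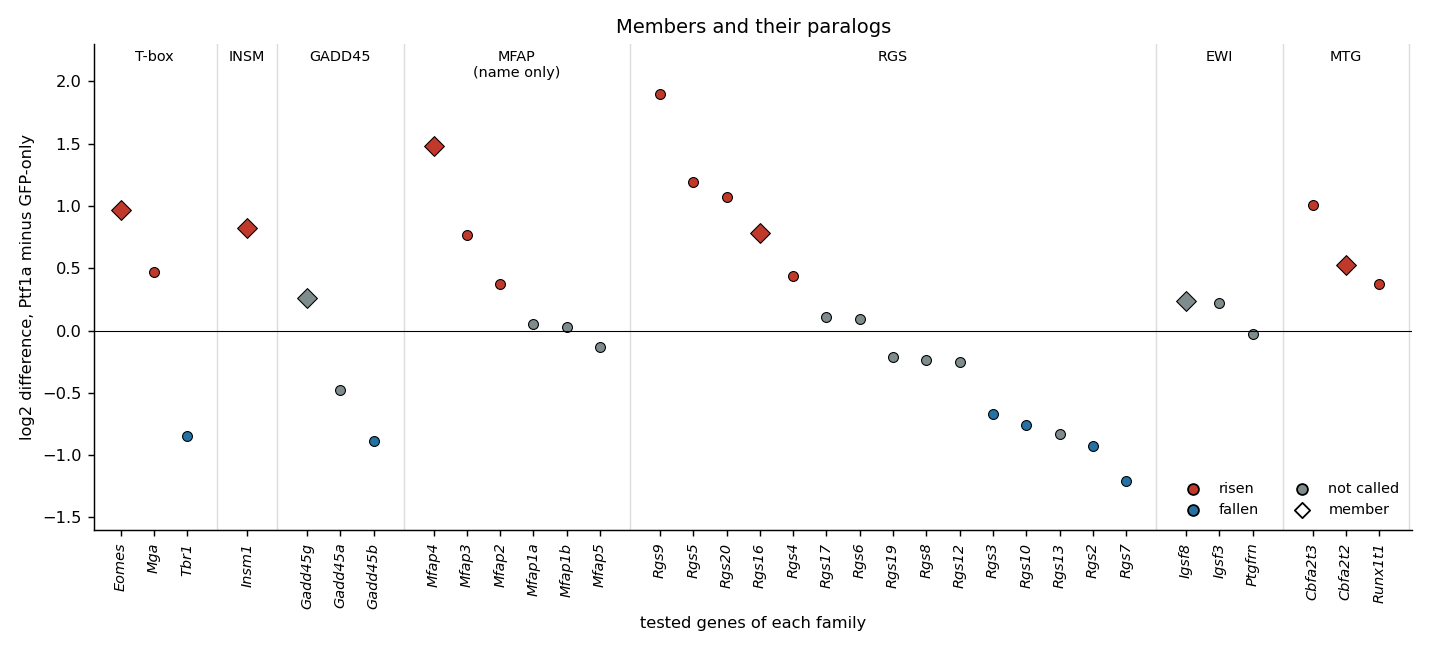
Log2 difference (Ptf1a minus GFP-only, log2(FPKM + 0.1), vertical axis) of every tested gene in the families of the 7 members, with members as diamonds and colour giving the call in the authors' table. All 3 MTG genes lie above 0 and were called, while the 15 RGS genes spread between -1.21 and 1.90.

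Level moved with direction across the whole table. When tested genes were ranked by mean expression and cut into 10 equal bins, the lowest bin had a median log2 difference of 0.47 and the highest bin one of -0.32. Set against the median of its own bin, each member remained above 0, with Mfap4 at 1.64, Eomes at 0.96, Insm1 at 0.82, Rgs16 at 0.62, Cbfa2t2 at 0.53, Gadd45g at 0.41 and Igsf8 at 0.33. The abundant members Gadd45g, Igsf8 and Mfap4 thus lay further above genes of like level than above 0.

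**Figure D3:**
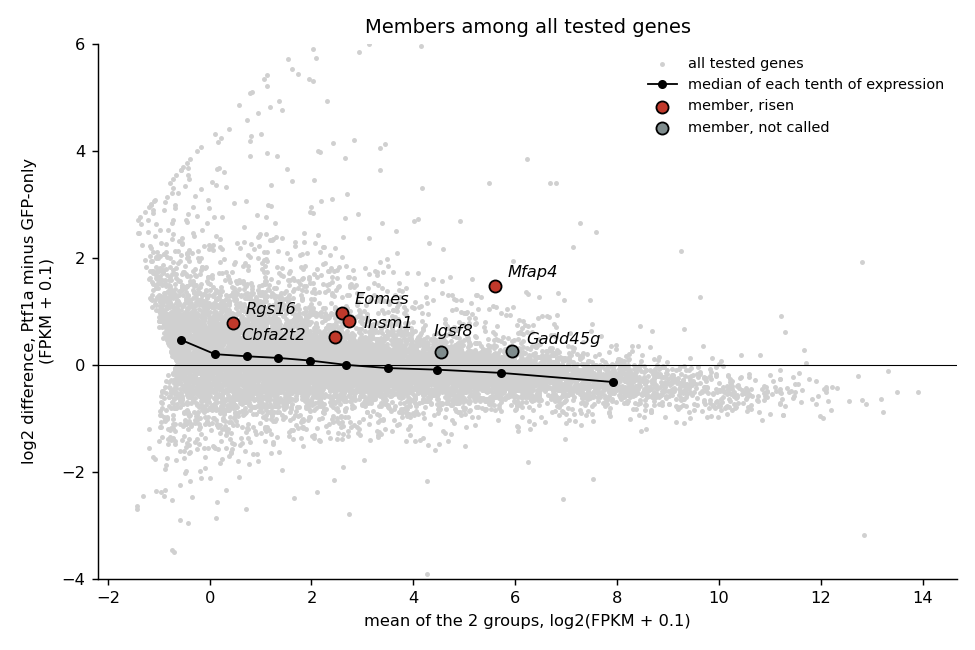
Log2 difference (Ptf1a minus GFP-only, vertical axis) against the mean of both groups on the log2(FPKM + 0.1) scale (horizontal axis) for all tested genes (grey; 33 lie outside the plotted range), with the median of each of the 10 expression bins as a black line and the 7 members as large points. The line is at 0.47 in the lowest bin and -0.32 in the highest, and all 7 members lie above it.

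The order in which cortical progenitors and neurons switch on transcription factors places Eomes in the middle, and so did its difference. Pax6, which comes before it, stood at 21.5 FPKM with Ptf1a and 3.73 FPKM in controls, a log2 difference of 2.50. Neurog2, which activates Eomes, stood at 13.3 FPKM with Ptf1a and 4.04 FPKM in controls, a log2 difference of 1.70. Both rose, and the log2 difference of Eomes was 0.97. The later factors fell: Neurod1 stood at 35.9 FPKM with Ptf1a and 50.6 FPKM in controls (-0.50), and Tbr1 at 8.29 FPKM with Ptf1a and 15.1 FPKM in controls (-0.85). Each of the 5 had q = 3.29e-04 in the authors' deposited table. Under the adjusted normal p, Pax6, Neurog2 and Tbr1 kept their calls, while Eomes (0.0559) and Neurod1 (0.248) did not. The FPKM of Eomes over that of Tbr1, another T-box gene, was 0.958 with Ptf1a and 0.266 in controls. Over Pax6 it was 0.369 with Ptf1a and 1.08 in controls. Neither ratio nor the difference between genes could be tested. Of the other 15 T-box genes, Mga rose by the authors' q alone (1.73 FPKM with Ptf1a, 1.22 FPKM in controls) and 14 had no test.

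**Figure D4:**
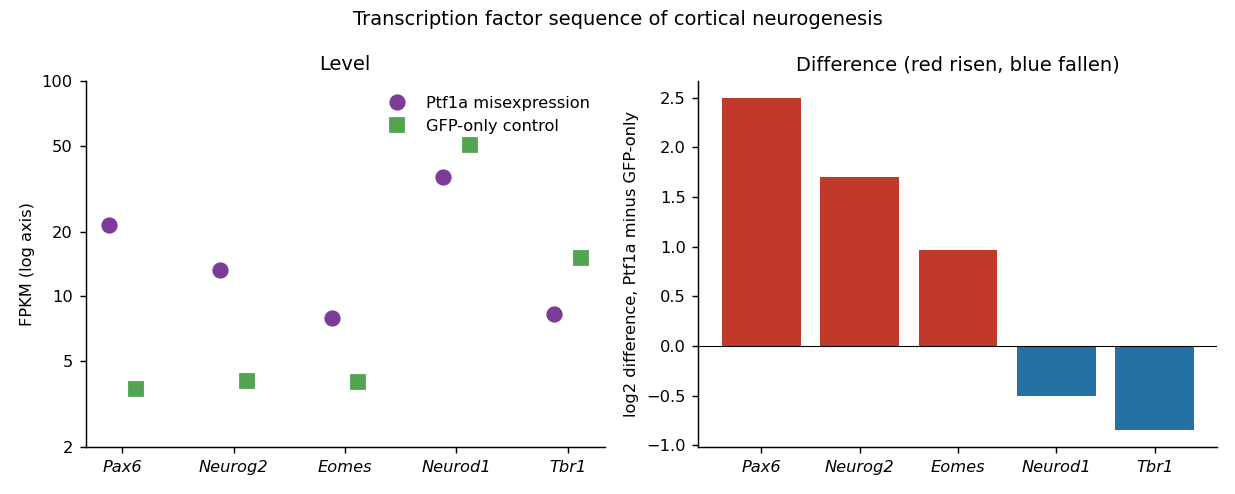
Left, FPKM (log axis) of the 5 factors in developmental order with Ptf1a (circles) and in GFP-only controls (squares), each a single merged value. Right, the log2 difference, Ptf1a minus GFP-only, which is 2.50 for Pax6, 0.97 for Eomes and -0.85 for Tbr1.

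Other genes known from basal progenitors did not move as a block. Neurog2 and Neurod1 of the sequence above are counted in this list too. Of 22 such genes 21 were tested, 10 rose and 4 fell, with a median log2 difference of 0.35, or 0.15 relative to genes of like level. By the adjusted normal p 7 rose and 0 fell, and the rises of Ppp1r17, Tac2 and Heg1 were not called. The bHLH genes Neurog1 (2.39 FPKM with Ptf1a, 0.205 FPKM in controls) and Nhlh1 (3.67 FPKM with Ptf1a, 0.453 FPKM in controls) rose with Neurog2. The phosphatase inhibitor gene Ppp1r17 rose by a log2 difference of 3.43, and the secreted matrix gene Smoc1 at 3.89 FPKM with Ptf1a and 0.677 FPKM in controls. The antiproliferative gene Btg2 rose to 36.3 FPKM with Ptf1a, against 14.6 FPKM in controls. The chromatin remodeller Chd7 (1.98 FPKM with Ptf1a, 0.834 FPKM in controls), the membrane protein Heg1 (0.719 FPKM with Ptf1a, 0.214 FPKM in controls) and the neuropeptide genes Penk and Tac2 also rose. The fallen were Neurod1, Hes6 (103 FPKM with Ptf1a, 127 FPKM in controls), the Notch ligand gene Dll3 (0.958 FPKM with Ptf1a, 1.68 FPKM in controls) and the somatostatin receptor gene Sstr2 (44.7 FPKM with Ptf1a, 55.0 FPKM in controls). Relative to genes of like level the Hes6 difference turned to 0.02. Dll1, Mfng, Unc5d, Cux2, Slc17a6, Elavl2 and Elavl4 were not called.

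The members' median lay between those of the stages on either side, while single values overlapped. So did the lower median of the other basal progenitor genes, at 0.35. Pax6 and Tbr1 count both here and in the sequence of factors above, so the comparisons are not separate. Ccnb1, Cdk1 and Pcna likewise count both as Gadd45 partners and as cell cycle genes. Of 25 radial glia genes 24 rose, with a median log2 difference of 1.20, and Hopx (1.30 FPKM with Ptf1a, 0.804 FPKM in controls) was not called. Of 25 cell cycle genes 24 rose, with a median of 1.05, and Pcna was not called. Of 21 tested genes of pyramidal neurons 2 rose and 12 fell, with a median of -0.33, beside the members' 0.78. Members ranged from 0.24 to 1.48, radial glia genes from 0.37 to 2.50 and pyramidal neuron genes from -1.42 to 0.48. By the adjusted normal p 16 radial glia genes and 16 cell cycle genes rose, and 2 pyramidal neuron genes fell. The differences between lists were not tested. The leading radial glia genes were Pax6, Sox3, Emx2 and Nes, the last an intermediate filament gene at 5.15 FPKM with Ptf1a and 1.03 FPKM in controls. The leading cell cycle genes were Ccnd2, Cdk2, Ccne1 and Mki67, with the cyclin gene Ccnd2 at 99.2 FPKM with Ptf1a and 25.7 FPKM in controls. The leading pyramidal genes were Bhlhe22, Tbr1, Mef2c and Mapt, with the bHLH gene Bhlhe22 at 7.75 FPKM with Ptf1a and 20.9 FPKM in controls. For the labelled cell type, cortical pyramidal cells, the most abundant tested gene of the list was Neurod6 (1190 FPKM with Ptf1a, 1717 FPKM in controls). Other genes of that list were low, such as Slc17a7 (1.39 FPKM with Ptf1a, 2.00 FPKM in controls). The radial glia gene Fabp7 stood at 3095 FPKM with Ptf1a and 1652 FPKM in controls. The make-up of the sorted cells was not tested.

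**Figure D5:**
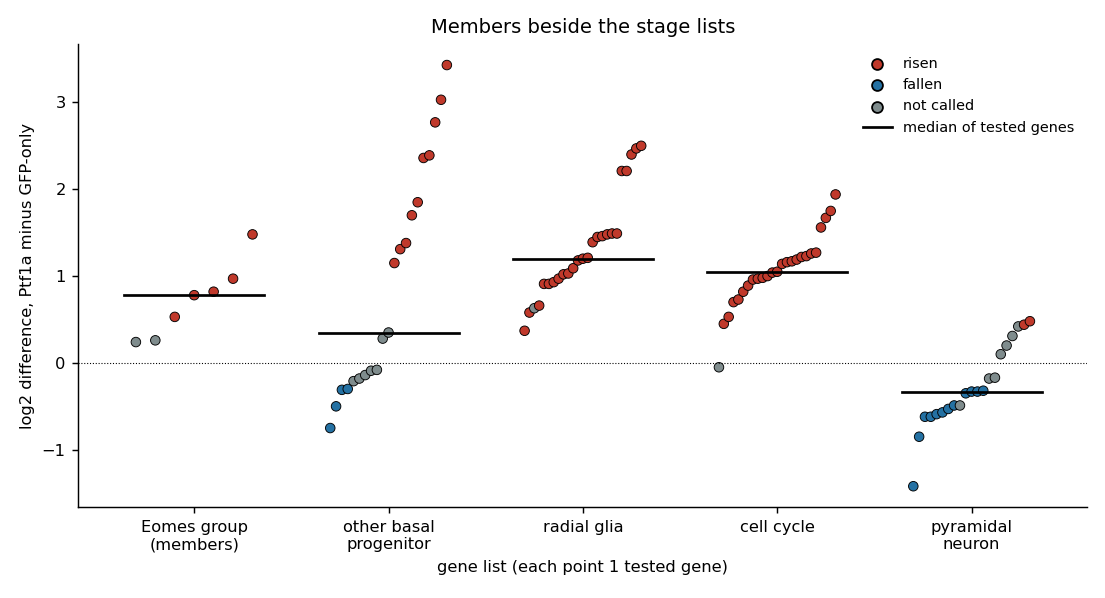
Log2 difference (Ptf1a minus GFP-only, log2(FPKM + 0.1), vertical axis) of each tested gene in the 7 members and in 4 other lists, with colour for the call in the authors' table and a bar at each list's median. The members' median of 0.78 lies below those of radial glia (1.20) and cell cycle genes (1.05) and above that of pyramidal neuron genes (-0.33).

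Eomes is also made by some Cajal-Retzius cells, the early neurons of the cortical surface, so their markers and those of interneurons are given here. Of 6 Cajal-Retzius genes 3 rose and 3 had no test, and by the adjusted normal p 1 rose, Calb2. Their sum was 143 FPKM with Ptf1a and 10.3 FPKM in controls, nearly all of it from Calb2. Reln, the defining gene, stood at 0.678 FPKM with Ptf1a and 0.244 FPKM in controls, and Trp73 at 0.136 FPKM with Ptf1a and 0.0218 FPKM in controls. Ebf3 rose to 0.536 FPKM with Ptf1a, against 0.0145 FPKM in controls. Of 9 interneuron genes 5 rose (Dlx5, Lhx6, Gad1, Gad2 and Sst), and by the adjusted normal p 2 of these rose, Gad2 and Sst. Dlx1 was not called, and Dlx2, Dlx6 and Nkx2-1 had no test. The interneuron sums were 94.6 FPKM with Ptf1a and 48.5 FPKM in controls. Most of each sum came from Sst (78.6 FPKM with Ptf1a, 41.3 FPKM in controls). The part of Cajal-Retzius cells and interneurons in the Eomes value was not tested.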

How the data were processed

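RNA from GFP-sorted cortical cells (2.1 to 7.8 ng per sample, RIN over 8) went through a SMARTer low-input amplification and 50 bp paired-end sequencing, per the labels' protocols. The submitters' processing notes name CASAVA 1.8.2, TopHat2 2.0.8, Cufflinks 2.1.1, Cuffdiff and build mm9, while the sources used here give neither annotation nor settings. Per the file headers, the authors deposited 1 merged FPKM value per gene and group. Also deposited were a log2 fold (Ptf1a over GFP), a test statistic (a score with a sign) and, for 11876 tested rows, a p-value and a q-value. The heading PIG was read as the Ptf1a group, since the other heading is GFP. Starts in the table appear 0-based and 1 was added before printing: of 20598 rows matched by symbol to RefSeq genes, 7148 then had the RefSeq span, against 451 otherwise.

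Genes were called at q under 0.05. Log2 differences used a pseudocount of 0.1. Benjamini-Hochberg adjustment of the deposited p gave the deposited q within 5.20e-07. Python 3.11.15, numpy 2.4.6, pandas 2.3.3 and scipy 1.17.1 were used, and the functions were tested on simulated data. The members and gene lists were chosen with earlier results of these data known. Of 235 list symbols 3 were not found and 2 were matched by synonym (Map2 and Zbtb18). Named are the members, their tested paralogs and partners, the called basal progenitor genes and up to 4 leading called genes of the stage lists. Genes outside that rule were chosen after their values were seen. Some listed genes are not reported here by name.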

Additional observations from a re-analysis of the deposited data

How the results depend on the processing

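No paired analysis was possible because the table holds 1 merged value per group, and for the same reason no sample could be left out. All 14 centred log2 differences of the 7 members kept their sign. Another pseudocount cannot turn the sign and changes the size only, with Eomes between 0.83 and 1.00 and Rgs16 between 0.46 and 0.84 over all settings. None of these settings touches the authors' call. Of 42 recomputed counts that were above 0 as reported, for the members and 4 lists, 29 were within 1.5 times the reported count. The exceptions follow, with the cause not tested except that a level or fold minimum admits fewer genes by construction. With the adjusted normal p of the test statistic, 1 member rose, 0 other basal progenitor genes fell, and 0 pyramidal neuron genes rose and 2 fell. With at least 5 FPKM, 3 other basal progenitor genes, 15 radial glia genes and 1 pyramidal neuron gene rose. With at least 1.5-fold, 1 other basal progenitor gene fell, and 0 pyramidal neuron genes rose and 5 fell. At q under 0.01, 1 other basal progenitor gene fell and 1 pyramidal neuron gene rose, and at q under 0.10, 4 pyramidal neuron genes rose. Without values per sample, the spread between samples and the depth behind each value are unknown.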

Other observations

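The tested genes outside the group whose pair of levels lay nearest to that of Eomes, by Euclidean distance over the 2 group values on the log2(FPKM + 0.1) scale, were Fgd4, Dlx5 and Lmf2. Fgd4, an exchange factor for a small GTPase, stood at 7.81 FPKM with Ptf1a and 4.09 FPKM in controls, at a distance of 0.035. Dlx5, a homeobox factor of ventral interneurons, stood at 7.62 FPKM with Ptf1a and 3.94 FPKM in controls, at a distance of 0.066. Lmf2 stood at 7.87 FPKM with Ptf1a and 3.81 FPKM in controls, at a distance of 0.075. Likeness over 2 values is a description of level and size only.

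Markers of non-neural cells and of oligodendrocyte precursors had low sums, except those of red blood cells. Oligodendrocyte precursor genes (Olig1, Olig2, Sox10 and Pdgfra) had no test and summed to 0.591 FPKM with Ptf1a and 0.334 FPKM in controls. The 6 endothelial genes summed to 4.48 FPKM with Ptf1a and 3.26 FPKM in controls, mostly Cldn5, which was not called. The 8 microglial genes summed to 11.7 FPKM with Ptf1a and 16.6 FPKM in controls, and Tyrobp fell. The 6 red blood cell genes found summed to 62.1 FPKM with Ptf1a and 149 FPKM in controls, and Hba-x, Hbb-y and Hbb-b2 fell. These sums leave out a beta globin row named Beta-s, which was not in the list. Its mean over both groups was 356.5 FPKM and its log2 difference -1.24, so the sums understate globin RNA. By the adjusted normal p the calls of Tyrobp and Hbb-b2 were not made.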
